A study of Mus musculus with 23 samples.

Results

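Elf5, Kit and 7 genes grouped with them as regulators or markers of mouse mammary luminal progenitors were followed through normal mammary cell populations and sorted tumour cells. The set was Elf5, Kit, Car2, Ehf, Elf3, Cebpb, Cebpd, Stat5a and Stat5b, taken as a named list and matched by symbol, ignoring case, in each of 3 expression tables. All 9 were found in each table, out of 24918 symbols listed over the 3 tables, and all 9 passed the filter on low values in each. Values are RPKM, read density scaled by gene length and library size, so levels can be set side by side between genes as well as between libraries of one table.

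Elf5 is an ETS-domain transcription factor that drives alveolar differentiation of luminal progenitors downstream of prolactin. Kit is the receptor tyrosine kinase for stem cell factor, the product of Kitl, and is a surface marker of luminal progenitors. Prolactin acts through its receptor Prlr and the kinase JAK2 on STAT5A and STAT5B, which switch on milk protein genes such as Csn2 and Wap, while CISH and SOCS proteins feed back on the receptor. Ehf and Elf3 encode epithelial ETS factors, Cebpb and Cebpd encode C/EBP transcription factors of ductal and alveolar growth and of acute-phase and involution responses, and Car2 encodes a cytosolic carbonic anhydrase.

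The normal table held luminal progenitor (LP), mature luminal (ML) and basal cells of adult wild-type C57BL6J mammary glands and fetal mammary stem cells (fMaSC) of E18 embryos of the same strain, with 2 libraries in each of the 4 groups. The PY230 table held cells of tumours that grew from transplanted PY230 cells, a single mammary tumour line, in syngeneic C57BL6J mice; the 3 fractions were basal SOX10 high, luminal SOX10 high and luminal SOX10 low, with 2 libraries each. The C3 table held cells of spontaneous tumours of FVB mice that carry C3-1-TAg, a transgene expressing SV40 T antigen under a C3(1) promoter. It had 5 libraries of SOX10 high and 4 of SOX10 low cells, each labelled basal. The design text calls the libraries biological replicates, and the labels do not say which came from separate animals or tumours, so p-values measure the spread between these libraries. About 2000 sorted cells went into a library; sources used here do not name the sorting markers. In such bulk libraries, fewer cells of a type and less RNA per cell cannot be told apart.

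Each sorted adult group had the highest sum of its own markers. Over 8 luminal progenitor markers, RPKM summed to 4363 to 4939 in LP libraries, 118 to 167 in ML, 100 to 115 in basal and 1177 to 1198 in fMaSC libraries. Over 8 mature luminal markers, Prlr among them, RPKM summed to 1216 to 1480 in LP, 9856 to 10660 in ML, 1219 to 1871 in basal and 140 to 147 in fMaSC libraries. Over 8 basal markers the sums were 16.5 to 24.4 in LP, 10.9 to 14.5 in ML, 1267 to 2654 in basal and 859 to 875 in fMaSC libraries, so that in basal library 2 the mature luminal sum of 1219 nearly equalled the basal sum of 1267. Melanocyte markers, which matter for Kit, summed to 0 to 1.33 in adult libraries and 36.4 to 43.6 in fMaSC libraries. Mast cell markers, the other usual source of Kit, were all at 0 in both LP libraries and summed to at most 2.41 in any normal library. Sox10 names the tumour fractions, so its own level there follows from how they were set apart. In the C3 table, 2 libraries with different labels, SOX10 high 1 and SOX10 low 2, were more alike than any other pair, with a correlation of 0.979 over genes. SOX10 high 2 and SOX10 low 3 followed at 0.967, and SOX10 low 1 stood apart in its myeloid markers, which summed to 2372 RPKM against 39.4 to 122 in the other SOX10 low libraries.

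Elf5, Kit, Car2, Ehf and Cebpd were each higher in LP cells than in both other adult populations, and higher in SOX10 high than in SOX10 low luminal cells of PY230 tumours. Elf5 and Kit, the 2 of these with an entry in the promoter table used, are shown by their promoters, as the 250 bases before each RefSeq start in build GRCm38.p6. Capitals mark GGAAG, the core that ETS factors bind. Elf5 has 2 windows, chr2:103411848-103412097 and chr2:103423818-103424067, and Kit has chr5:75574737-75574986, all on the plus strand.
Elf5 window 1: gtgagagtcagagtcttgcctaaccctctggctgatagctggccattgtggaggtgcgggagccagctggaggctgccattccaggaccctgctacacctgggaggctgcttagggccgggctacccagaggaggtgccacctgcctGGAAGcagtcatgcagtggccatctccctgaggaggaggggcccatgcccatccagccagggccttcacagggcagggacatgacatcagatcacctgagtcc
Elf5 window 2: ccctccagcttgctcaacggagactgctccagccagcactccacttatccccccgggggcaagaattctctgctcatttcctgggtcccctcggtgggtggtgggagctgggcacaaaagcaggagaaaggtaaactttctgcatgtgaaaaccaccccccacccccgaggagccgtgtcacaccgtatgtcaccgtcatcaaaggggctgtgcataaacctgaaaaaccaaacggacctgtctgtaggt
Kit: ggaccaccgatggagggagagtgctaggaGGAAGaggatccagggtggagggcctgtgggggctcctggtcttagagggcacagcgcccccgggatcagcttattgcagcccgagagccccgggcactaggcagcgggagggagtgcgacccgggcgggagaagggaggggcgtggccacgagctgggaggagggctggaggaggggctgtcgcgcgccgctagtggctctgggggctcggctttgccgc
On both strands, GGAAG was found in the first Elf5 window and the Kit window and not in the second Elf5 window; 64.1% of 32851 mouse promoters of the same length hold it. TTNNGNAA, a C/EBP-type motif, was found in both Elf5 windows and not in the Kit window, against 36.8% of all promoters. The STAT motif TTCNNNGAA, held by 7.02% of all promoters, and ACAAAG, a SOX-type motif held by 16.5%, were in neither gene's windows, nor in the other windows found for Elf3, Cebpb, Stat5a and Stat5b. Promoter entries were found for 6 of the 9 members. A match describes letters in a window and not a bound site.

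Kit and Car2 were highest in LP cells among the normal populations, and Elf5 values overlapped between LP and fMaSC libraries. Elf5 stood at 11.0 and 8.64 RPKM in the 2 LP libraries, 0.569 and 1.66 in ML, 0.598 and 0.227 in basal and 8.87 and 6.68 in fMaSC libraries. The LP and fMaSC values overlapped and lay above all ML and basal values. Elf5 was higher in LP than in basal cells by 2.94 ± 0.32 (SE) on the log2(RPKM + 1) scale, a scale that understates the change of genes near 0, with limma's adjusted p = 0.000847, and higher than in ML cells by 2.39 (adjusted p = 0.00335). Against fMaSC the difference was 0.30 ± 0.32 (adjusted p = 0.466), with a 95% interval of -0.46 to 1.07.

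Kit, the stem cell factor receptor, stood at 20.6 and 17.7 RPKM in LP libraries, 0.678 and 1.29 in ML, 0.0962 and 0.411 in basal and 6.54 and 6.21 in fMaSC libraries. Every LP value was above every fMaSC value, and both were above all other adult values. LP cells were higher than basal cells by 4.01 ± 0.26 on the log2 scale (limma, adjusted p = 0.00011), than ML cells by 3.36 (adjusted p = 0.000507) and than fMaSC by 1.45 (adjusted p = 0.00303). The part of melanocyte RNA in the fMaSC value of Kit was not tested. The ligand gene ran the other way between LP and basal cells: Kitl averaged 111 RPKM in LP cells against 551 RPKM in basal cells, a difference of -2.27 (adjusted p = 0.0016).

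Car2 spread most widely of the 9 among the normal groups. Car2 stood at 241 and 185 RPKM in LP libraries, 0.912 and 2.27 in ML, 0.540 and 1.51 in basal and 7.59 and 5.90 in fMaSC libraries. LP cells lay far above the rest with no overlap, at a mean 134-fold that of ML cells, 208-fold that of basal cells and 31.6-fold that of fMaSC. The log2 differences were 6.41, 6.76 and 4.79, with limma's adjusted p of 0.000216, 5.65e-05 and 7.01e-05. Between ML and basal cells, Elf5, Kit and Car2 were all near 1 RPKM or below and none was called, with adjusted p of 0.201, 0.0704 and 0.452; Kit was called there under a pseudocount of 0.1 (adjusted p = 0.0341), under quantile normalization (0.0236), under median-of-ratios scaling (0.0444) and without basal library 2 (0.0341).

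**Figure D1:**
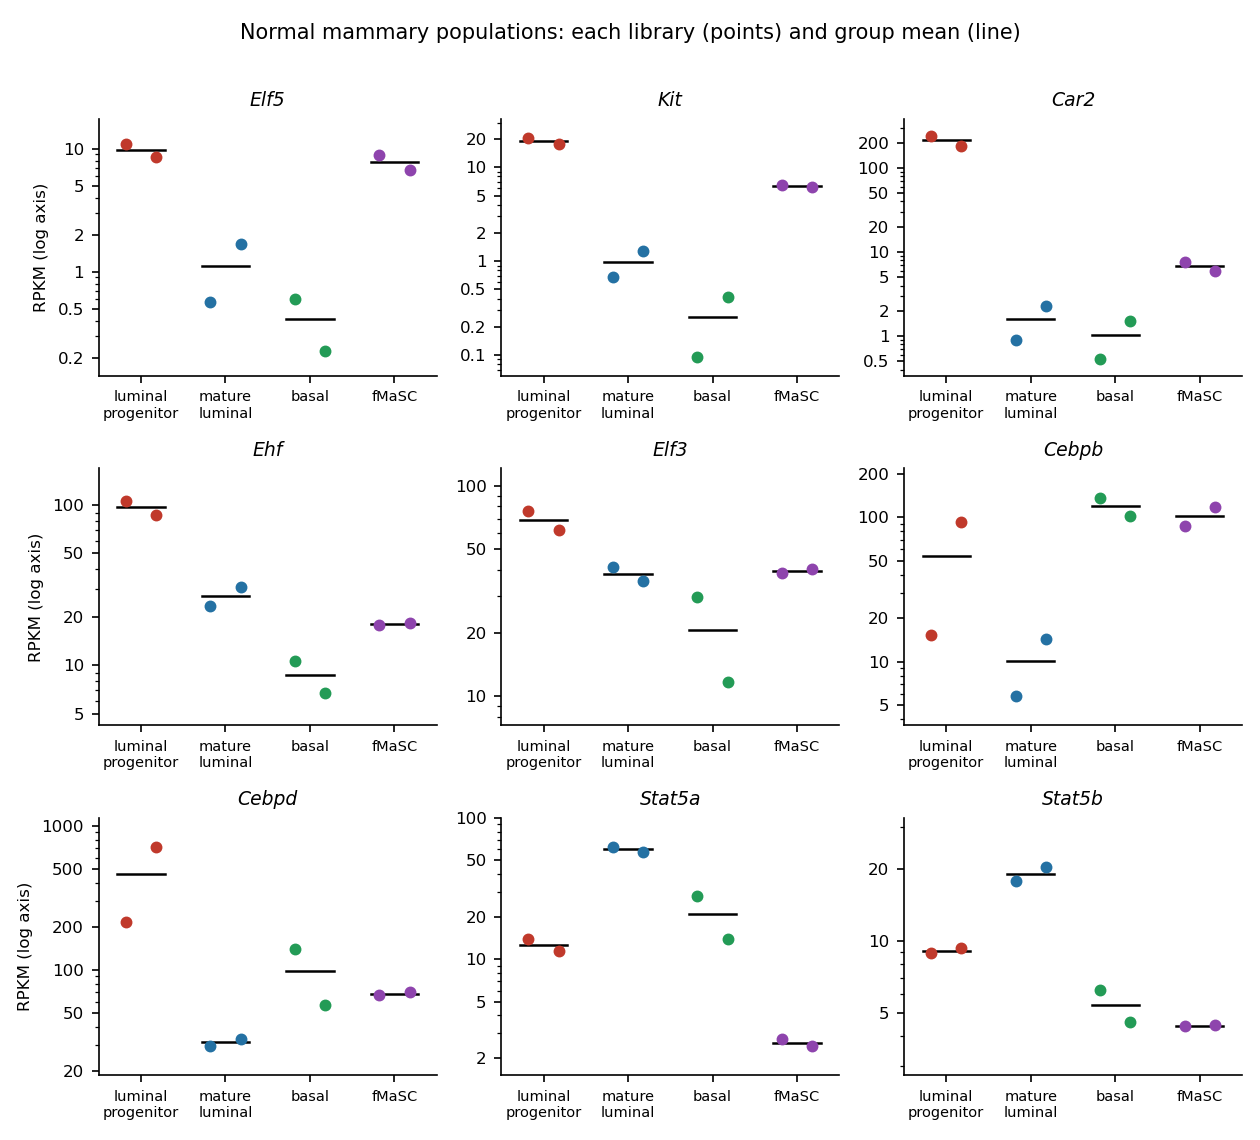
RPKM on a log axis of the 9 genes, one panel each, in LP, ML, basal and fMaSC libraries of the normal mammary gland; points are libraries and lines are group means (n = 2 each). Kit and Car2 are highest in LP cells, Elf5 overlaps between LP and fMaSC libraries, and Stat5a is highest in ML cells.

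The epithelial ETS genes Ehf and Elf3 were present in all 4 normal populations. Ehf stood at 106 and 87.4 RPKM in LP libraries, 23.7 and 30.9 in ML, 10.7 and 6.76 in basal and 18.0 and 18.5 in fMaSC libraries. LP values were the highest, ML the next, and basal the lowest, with no overlap between groups. LP cells were higher than basal cells by 3.35 ± 0.26 (limma, adjusted p = 0.000193), than ML cells by 1.80 (adjusted p = 0.00391) and than fMaSC by 2.34 (adjusted p = 0.000334), and ML cells were higher than basal cells by 1.56 (adjusted p = 0.00259). ML and fMaSC, neighbours in that order, differed by 0.54 (adjusted p = 0.107); under quantile normalization the difference was 1.10 (adjusted p = 0.00563) and under median-of-ratios scaling 0.97 (adjusted p = 0.0124). Ehf and Elf5 are neighbouring genes on chromosome 2, but their orders differed: fMaSC libraries were close to LP in Elf5 and below ML in Ehf.

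Elf3 varied least among the ETS members. It stood at 75.8 and 61.9 RPKM in LP libraries, 41.2 and 35.2 in ML, 29.7 and 11.6 in basal and 38.7 and 40.5 in fMaSC libraries. Both LP values were above all others, and ML and fMaSC values overlapped. LP cells were higher than basal cells by 1.82 ± 0.38 (limma, adjusted p = 0.0103), a call lost without LP library 1 (adjusted p = 0.0671). The differences from ML cells, 0.83 (adjusted p = 0.168), and from fMaSC, 0.78 (adjusted p = 0.128), were not called, although the second was called under quantile normalization (adjusted p = 0.0303) and median-of-ratios scaling (0.0423).

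The C/EBP genes were unevenly measured in LP cells, where the 2 libraries differed by more than in any other normal group. Cebpb stood at 15.3 and 92.9 RPKM in LP libraries, 5.79 and 14.3 in ML, 136 and 101 in basal and 86.9 and 119 in fMaSC libraries. One LP value lay close to ML and the other within the fMaSC range, so Cebpb was not called between LP and any other group. ML cells were lower than basal cells (-3.54 on the log2 scale) and lower than fMaSC (-3.33; limma, adjusted p = 0.00789 and 0.00788), and both calls were lost without ML library 1 (0.0604 and 0.0563). Without LP library 2, LP cells were lower than basal cells (adjusted p = 0.0182) and than fMaSC (0.011), and without LP library 1 they were higher than ML cells (adjusted p = 0.0213).

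Cebpd, an early acute-phase and involution factor, stood at 214 and 709 RPKM in LP libraries, 29.8 and 33.0 in ML, 141 and 56.6 in basal and 66.9 and 70.2 in fMaSC libraries. Both LP values were above all others, although they differed widely from each other. LP cells were higher than ML cells by 3.59 (limma, adjusted p = 0.00621), than fMaSC by 2.49 (adjusted p = 0.0102) and than basal cells by 2.11 (adjusted p = 0.0286). The call against basal cells was lost without LP library 2 (adjusted p = 0.134), without basal library 2 (0.0918) and with no filter on low values (0.0639), and the call against fMaSC without fMaSC library 1 (0.0514). The ratio of Cebpd to Cebpb, by RPKM, was 14.0 and 7.63 in LP libraries, 5.15 and 2.32 in ML, 1.03 and 0.559 in basal and 0.769 and 0.591 in fMaSC libraries.

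Stat5a and Stat5b, the prolactin-activated transcription factors, were higher in ML than in LP cells, unlike Elf5, Kit, Car2, Ehf and Cebpd. Stat5a stood at 14.0 and 11.4 RPKM in LP libraries, 62.6 and 57.1 in ML, 27.9 and 13.9 in basal and 2.71 and 2.42 in fMaSC libraries. ML values were above all others, fMaSC values below all others, and LP and basal values overlapped. LP cells were lower than ML cells (-2.16, limma, adjusted p = 0.00431) and higher than fMaSC by 1.94 (adjusted p = 0.00203). The difference between LP and basal cells was -0.61 (adjusted p = 0.175), and it was called without basal library 2 (-1.08, adjusted p = 0.00797).

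Stat5b stood at 8.87 and 9.31 RPKM in LP libraries, 17.8 and 20.4 in ML, 6.25 and 4.57 in basal and 4.40 and 4.46 in fMaSC libraries. ML values were again the highest and LP values the next, with fMaSC lowest and just under basal. LP cells were lower than ML cells (-0.99, limma, adjusted p = 0.0199), a call lost on leaving out any one of the 4 libraries of that pair (adjusted p of 0.0747 to 0.126), and higher than fMaSC by 0.89 (adjusted p = 0.0127), lost without fMaSC 1 (0.0858), fMaSC 2 (0.0814) or LP 2 (0.0585). Against basal cells the difference was 0.67 (adjusted p = 0.0523); it was called under quantile normalization (0.0238), under median-of-ratios scaling (0.0375) and without basal library 1 (0.0137). Stat5a and Stat5b are near-identical neighbours on chromosome 11, so reads may be split between them with error.

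Per kilobase, Stat5a exceeded Stat5b in the adult populations and not in fMaSC. The ratio of Stat5a to Stat5b was 1.58 and 1.22 in LP libraries, 3.51 and 2.80 in ML, 4.46 and 3.05 in basal and 0.615 and 0.543 in fMaSC libraries. In the tumour tables, which are described side by side with the normal one and not compared with it, the ratio was 1.504 and 1.131 in PY230 basal SOX10 high, 1.40 and 1.62 in luminal SOX10 high and 1.77 and 1.62 in luminal SOX10 low libraries. It ran from 0.953 to 1.35 (median 1.06) in C3 SOX10 high and from 0.904 to 2.07 (median 1.26) in C3 SOX10 low libraries.

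**Figure D2:**
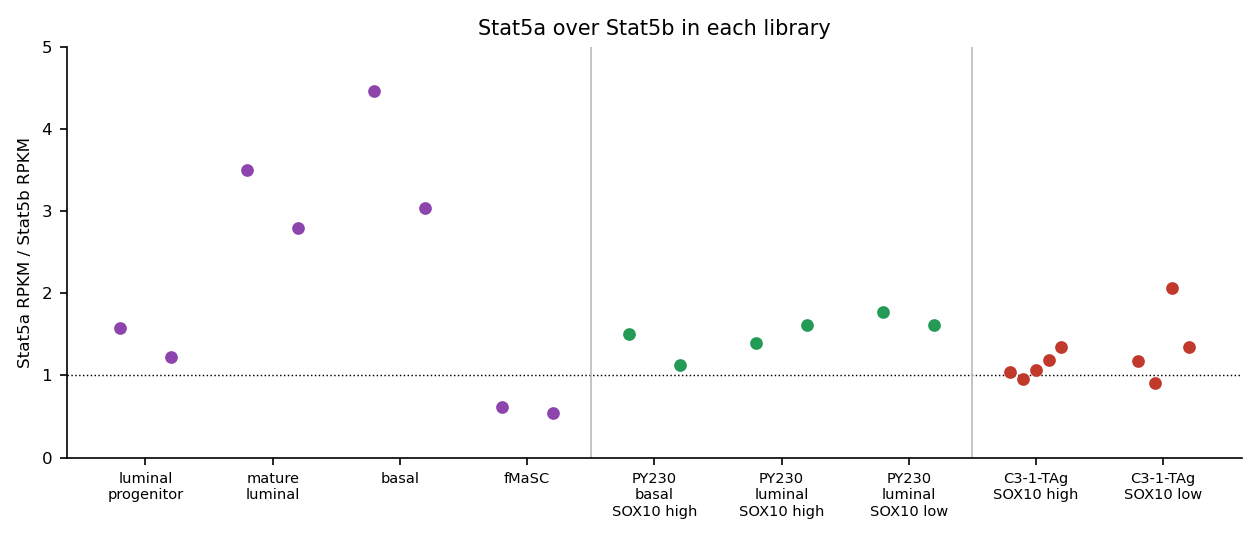
Ratio of Stat5a to Stat5b RPKM in each library of the 9 groups, with a dotted line at 1. The fMaSC libraries lie below 1, at 0.615 and 0.543, and the basal libraries reach 4.46.

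Counted together, 6 of 9 members were higher in LP than in basal cells and none was lower, where 14.5% of 12553 genes tested were higher and 21.0% lower (35.5% called in all, with 1814 genes higher and 2641 lower, or 2393 and 2199 under quantile normalization); the median log2 difference was 2.11 for the members and -0.08 for all genes. Between LP and ML cells, 5 were higher (Elf5, Kit, Car2, Ehf, Cebpd) and 2 lower (Stat5a, Stat5b), against 13.4% and 8.63% of genes (22.1% in all), with medians of 1.94 and 0.04. Between LP cells and fMaSC, 6 were higher and none lower, against 15.0% and 35.5% of genes (50.6% in all; 1888 higher and 4461 lower, or 3043 and 3090 under quantile normalization), with medians of 1.45 and -0.39. The 3 comparisons share the LP libraries.

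In the normal comparisons without LP cells, members were called in both directions, as they were between LP and ML cells. Between ML and basal cells, 3 members (Ehf, Stat5a, Stat5b) were higher and 1 (Cebpb) lower, where 19.8% of genes were higher and 28.8% lower (48.6% in all; 2488 and 3611 genes, or 3436 and 2962 under quantile normalization), and the members' median was 0.66 against -0.12 for all genes. Stat5a was higher in ML cells by 1.55 (limma, adjusted p = 0.00634) and Stat5b by 1.66 (adjusted p = 0.00116). Elf3, at 0.99 (adjusted p = 0.0667), was called there under quantile normalization (0.0195), under median-of-ratios scaling (0.0291), with the replicate block (0.041) and without basal library 1 (0.000774). Cebpd, at -1.48 (adjusted p = 0.0723), was called without basal library 2 (0.0229).

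Both of the other adult populations were below fMaSC in Elf5, Kit and Car2. In basal cells against fMaSC, Elf5 fell by 2.64, Kit by 2.57 and Car2 by 1.97 on the log2 scale (limma, adjusted p = 0.000484, 0.000212 and 0.00265). Car2 is also a red cell enzyme, and red cell markers summed to 0 to 9.40 RPKM in adult and 334 to 355 in fMaSC libraries; their part in the Car2 values was not tested. Ehf and Elf3 also fell, by 1.01 and 1.04 (adjusted p = 0.0111 and 0.047), and Stat5a rose by 2.54 (adjusted p = 0.000505), a gene that is highest in ML cells. Mature luminal markers moved with Stat5a, at 1219 to 1871 RPKM in basal and 140 to 147 in fMaSC libraries. Prlr is 1 of these 8 markers, and its share of the sum was not set apart. The part of these markers in the Stat5a change was not tested. These calls gave 1 member higher and 5 lower where 60.3% of genes were called (23.4% higher, 36.9% lower; 2941 and 4628 genes, or 3688 and 3796 under quantile normalization). The Elf3 call was lost under 4 other settings (adjusted p of 0.0539 with a pseudocount of 0.1, 0.0832 with no filter, 0.0877 under quantile normalization, 0.0912 under median-of-ratios scaling) and on leaving out libraries (up to 0.152), and the Ehf call was lost without fMaSC 1 or 2 (0.0586 and 0.0641). Cebpb, Cebpd and Stat5b were not called (0.21, 0.38 and 0.23), although Stat5b was under quantile normalization (0.0462). In ML cells against fMaSC, Elf5 fell by 2.09, Kit by 1.91 and Car2 by 1.62 (adjusted p = 0.00134, 0.000685 and 0.00666; Car2 0.0508 under quantile normalization), while Stat5a rose by 4.09 (adjusted p = 5.74e-05) and Stat5b by 1.89 (adjusted p = 0.000369). With Cebpb, that made 2 members higher and 4 lower, where 14.7% of genes were higher and 41.7% lower (56.4% in all; 1849 and 5231 genes, or 3146 and 3399 under quantile normalization). Elf3 and Cebpd were not called there (-0.055 and -1.10). The median log2 difference of all genes was -0.27 in the basal comparison and -0.53 in the ML comparison, against -1.01 and -1.10 for the members.

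Genes around the members in their pathways were mixed. Of 14 tested genes of prolactin and STAT5 signalling, 5 were higher and 3 lower in LP than in ML cells (median 0.02). Of all genes tested, 13.4% were higher and 8.63% lower there. Prlr, the prolactin receptor, stood at 664 and 483 RPKM in LP libraries against 4013 and 4291 in ML libraries, a difference of -2.87 (limma, adjusted p = 0.000479), and its kinase Jak2 averaged 31.6 against 105 RPKM (-1.70, adjusted p = 0.00152). The receptor, its kinase and both Stat5 genes were thus all lower in LP cells. The feedback inhibitors Cish (24.8 against 6.81 RPKM, 1.73, adjusted p = 0.0157) and Socs2 (33.9 against 12.4 RPKM, 1.51, adjusted p = 0.024) were higher in LP cells.

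Csn2, the milk protein beta-casein, stood at 7.02 and 58.4 RPKM in LP libraries and was listed at 0 in both basal libraries (adjusted p = 0.0052), while Wap was listed at 0 in every normal library. Against fMaSC, LP cells were higher in Prlr by 3.48 (limma, adjusted p = 3.4e-05) and in Jak2 by 1.301, and lower in Socs2 (-1.68). In this comparison 5 of 14 genes were higher and 2 lower, beside 15.0% and 35.5% of all genes. Against basal cells the same list had 1 gene higher and 3 lower, beside 14.5% and 21.0% of all genes. Neither Prlr (-0.50, limma, adjusted p = 0.11) nor Jak2 (-0.06, adjusted p = 0.82) was called.

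In Kit signalling, 2 of 13 tested genes were higher and 4 lower in LP than in basal cells (median -0.57), beside 14.5% and 21.0% of all genes. The Src-family kinase Lyn averaged 14.5 RPKM in LP cells against 2.12 in basal cells (2.29, adjusted p = 0.00118) and 3.82 in ML cells (1.66, adjusted p = 0.00654), and the related kinase Fyn averaged 3.58 in LP against 13.6 in basal cells (-1.67). Kitl was not called between LP and ML cells (0.73, adjusted p = 0.117) or between LP cells and fMaSC (0.49, adjusted p = 0.199). Of 15 other ETS genes tested, none was higher and 5 were lower in LP than in basal cells, beside 14.5% of all genes higher and 21.0% lower. Ets2 averaged 160 RPKM in LP against 390 in ML cells (-1.28, adjusted p = 0.0028), and Etv5 averaged 1.73 in LP cells against 71.3 in fMaSC (-4.75, adjusted p = 2.3e-05).

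Among 7 other carbonic anhydrase genes tested, Car13 was the one higher in LP than in basal cells (37.8 against 24.6 RPKM, 0.59, adjusted p = 0.0491) and in ML cells (3.17 RPKM, 3.21, adjusted p = 0.000259). Car12 averaged 0.545 RPKM in LP cells against 52.6 in fMaSC (-5.13), and Car3 0.213 against 82.6 (-6.11). Car3 is also a fat cell gene, and fat markers, Car3 among them, summed to 17.3 to 30.1 RPKM in LP and 211 to 237 in fMaSC libraries; their part in the Car3 value was not tested. Of 9 other C/EBP and STAT genes tested, none was higher and 1 was lower in LP than in basal cells, and none was called against ML cells. Of all genes, 14.5% were higher and 21.0% lower than in basal cells, and 22.1% were called against ML cells.

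**Figure D3:**
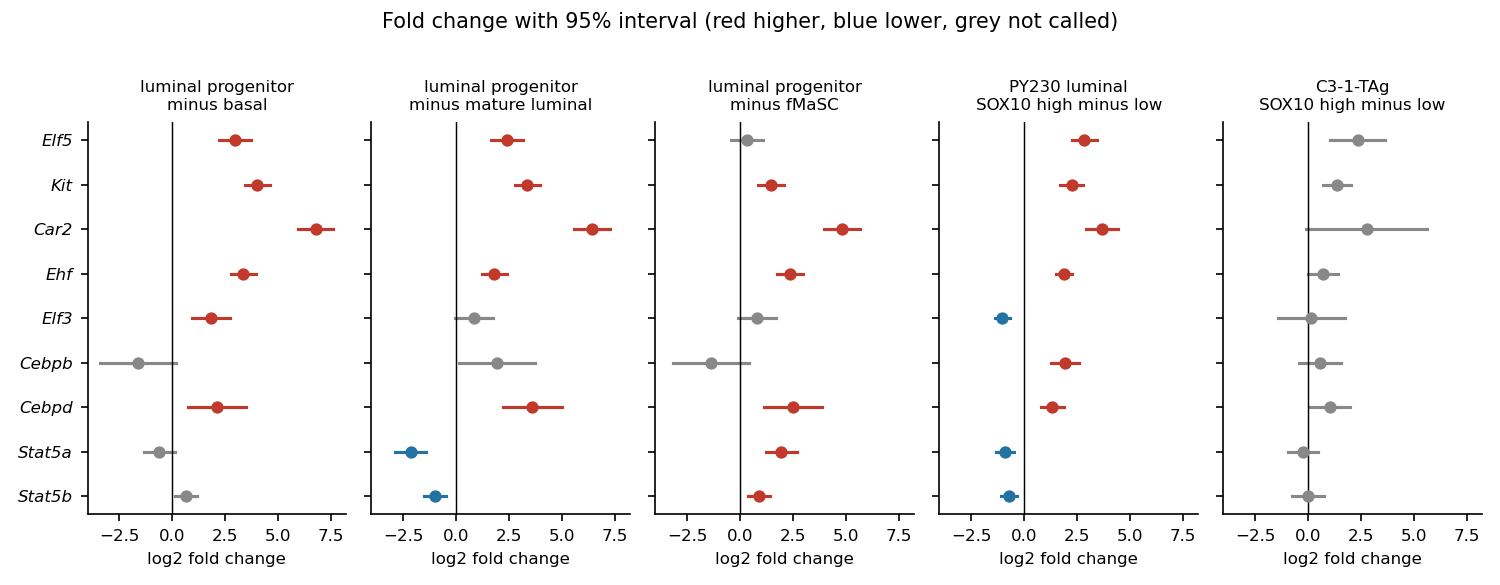
Differences in log2(RPKM + 1) with 95% intervals for the 9 genes in 5 comparisons: LP minus basal, LP minus ML, LP minus fMaSC, PY230 luminal SOX10 high minus low and C3 SOX10 high minus low. Red marks genes called higher, blue called lower and grey not called. Elf5 reaches 2.83 in PY230 luminal cells, Car2 reaches 6.76 in LP minus basal, and every C3 value is grey.

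In the luminal cells of PY230 tumours, 6 members were higher and 3 lower in SOX10 high than in SOX10 low cells, so that all 9 were called where 12.6% of 13136 genes were higher and 10.0% lower (22.6% in all). The members' median was 1.87 against 0.01 for all genes. Elf5, Kit, Car2, Ehf, Cebpb and Cebpd were higher, and Elf3, Stat5a and Stat5b lower. Elf5 stood at 129 and 101 RPKM in luminal SOX10 high libraries, against 17.5 and 13.1 in luminal SOX10 low libraries. The groups did not overlap, and the difference was 2.83 ± 0.25 on the log2 scale (limma, adjusted p = 0.00235), 7.51-fold by the means.

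Kit stood at 63.3 and 39.6 RPKM in luminal SOX10 high libraries, against 11.1 and 8.71 in luminal SOX10 low libraries. No values overlapped, and the difference was 2.24 ± 0.23 (limma, adjusted p = 0.00333). Car2 stood at 74.1 and 37.1 RPKM in SOX10 high against 2.67 and 3.89 in SOX10 low cells, the widest difference of the 9 at 3.66 ± 0.31 (adjusted p = 0.00228). Ehf stood at 83.5 and 68.0 RPKM against 20.8 and 19.1 RPKM (1.87, adjusted p = 0.00228).

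Elf3 went the other way from Elf5 and Ehf, at 70.1 and 83.0 RPKM in SOX10 high against 152 and 161 RPKM in SOX10 low cells. The difference was -1.03 ± 0.14 (limma, adjusted p = 0.00733; 0.0602 without low library 2). Cebpb stood at 205 and 118 RPKM in SOX10 high against 44.7 and 35.4 in SOX10 low cells (1.94, adjusted p = 0.00829). Cebpd stood at 51.3 and 32.6 against 13.8 and 17.9 RPKM (1.32, adjusted p = 0.0137; 0.0659 without low library 1). The C/EBP genes thus moved the same way as Elf5 and Kit.

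Stat5a stood at 10.8 and 15.5 RPKM in SOX10 high against 24.3 and 25.8 in SOX10 low cells, and Stat5b at 7.74 and 9.58 against 13.7 and 16.0. The differences were -0.90 ± 0.18 and -0.72 ± 0.16 (limma, adjusted p = 0.0208 and 0.027). Both calls rest on few libraries. Without SOX10 high 1, low 1 or low 2, Stat5a had an adjusted p of 0.0609, 0.0802 and 0.113 and Stat5b of 0.105, 0.0842 and 0.166, and Stat5b had 0.052 with no filter.

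Basal SOX10 high cells shared high Car2 with luminal SOX10 high cells and not Elf5, Kit or Ehf. Elf5 stood at 14.9 and 23.2 RPKM in basal SOX10 high libraries, Kit at 4.14 and 4.41, Ehf at 8.96 and 11.2 and Elf3 at 10.1 and 11.6. All were below every luminal SOX10 high value, with log2 differences of -2.55, -3.28, -2.80 and -2.71 (limma, adjusted p = 0.000467, 0.000142, 9.38e-05 and 9.07e-05). Car2 stood at 76.8 and 79.9 RPKM in basal SOX10 high libraries, and its difference from luminal SOX10 high cells was 0.57 with a 95% interval of -0.18 to 1.31 (adjusted p = 0.186); without luminal SOX10 high 1 it was 1.06 (adjusted p = 0.0125). In all, 1 member was higher, Cebpd, and 6 were lower, where 13.8% of genes were higher and 28.2% lower (42.0% in all; 1814 and 3699 genes, or 2497 and 2294 under median-of-ratios scaling), with medians of -0.97 and -0.21.

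Cebpb stood at 94.97 and 122 RPKM in basal SOX10 high libraries, overlapping luminal SOX10 high values, with a difference of -0.52 (adjusted p = 0.175; -0.92 and 0.0216 without luminal SOX10 high 2). Cebpd stood at 67.1 and 70.9 RPKM there, 0.74 above luminal SOX10 high cells (limma, adjusted p = 0.0393). That call was lost with no filter (0.0715), with the replicate block (0.0533) and on leaving out libraries (0.105 to 0.149). Stat5a stood at 6.55 and 5.73 RPKM and Stat5b at 4.36 and 5.06, the lowest of the 3 fractions, below luminal SOX10 high cells (-0.97 and -0.75, adjusted p = 0.00674 and 0.0112; Stat5b 0.068 without basal library 1).

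Set against luminal SOX10 low cells, basal SOX10 high cells were higher in Car2 (4.23), Cebpb (1.42) and Cebpd (2.06) and lower in Kit (-1.04), Ehf (-0.93), Elf3 (-3.73), Stat5a (-1.87) and Stat5b (-1.47), all by limma with adjusted p of at most 0.0088. Kit was lost without low library 1 (0.0503) or basal library 1 (0.0509). Elf5 overlapped between these fractions, with a difference of 0.28 and a 95% interval of -0.31 to 0.87 (adjusted p = 0.368). The 3 members higher and 5 lower stand beside 21.8% and 33.4% of genes (55.2% in all; 2865 and 4389 genes, or 3756 and 3319 under median-of-ratios scaling), with medians of -0.93 and -0.16. Sox10 itself was at 72.0 and 78.3 RPKM in basal SOX10 high, 101 and 66.9 in luminal SOX10 high and 13.6 and 11.0 in luminal SOX10 low libraries. Sox10 and Car2 were thus both lowest in luminal SOX10 low cells, while Elf5, Kit and Ehf were highest in luminal SOX10 high cells.

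**Figure D4:**
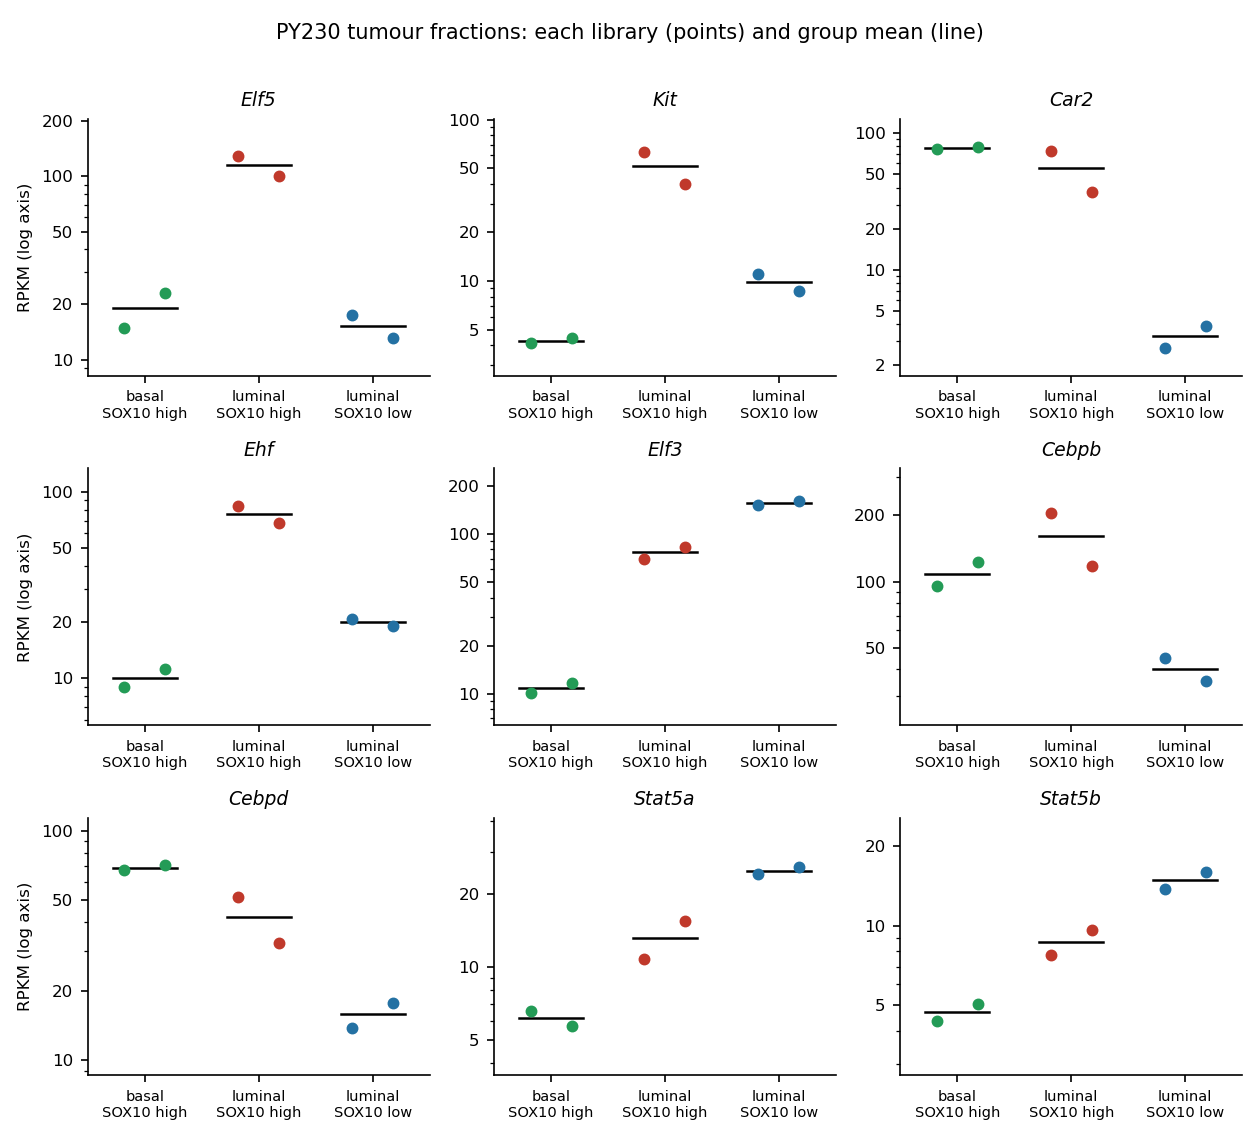
RPKM on a log axis of the 9 genes in PY230 tumour fractions: basal SOX10 high, luminal SOX10 high and luminal SOX10 low; points are libraries and lines are group means (n = 2 each). Elf5, Kit and Ehf are highest in luminal SOX10 high cells, Car2 is low in luminal SOX10 low cells, and Elf3, Stat5a and Stat5b are highest in luminal SOX10 low cells.

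Marker sums moved with these fractions. Over the 8 luminal progenitor markers, RPKM summed to 662 to 924 in basal SOX10 high, 914 to 1950 in luminal SOX10 high and 280 to 293 in luminal SOX10 low libraries. Mature luminal markers summed to 69.3 to 144, 530 to 1185 and 2608 to 2629, and the 4 general epithelial markers to 342 to 394, 2847 to 3160 and 5305 to 5387 in the same order of fractions. Myeloid markers summed to 138 to 160 in luminal SOX10 high and 44.9 to 69.5 in luminal SOX10 low libraries. The part of these populations in the members' values was not tested; mast cell markers summed to at most 0.778 in any PY230 library.

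Of 14 prolactin and STAT5 pathway genes tested, 3 were higher and 2 lower in luminal SOX10 high than in luminal SOX10 low cells (median 0.10). Of all genes tested, 12.6% were higher and 10.0% lower there. Wap, a milk protein, stood at 4.91 and 4.62 RPKM in SOX10 high against 0.09 and 0 in SOX10 low cells (2.46, limma, adjusted p = 0.00144), while Prlr averaged 98.1 against 232 RPKM and was not called (-1.37, adjusted p = 0.0854). Prlr was lower in basal than in luminal SOX10 high cells, at 7.93 and 18.2 against 56.7 and 140 RPKM (-2.78, adjusted p = 0.00462). Kitl stood at 13.0 and 11.2 RPKM in basal SOX10 high against 3.25 and 3.32 in luminal SOX10 high cells (1.61, limma, adjusted p = 0.00037). Ligand and receptor genes thus again ran in opposite directions, here between the basal and luminal SOX10 high fractions.

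Of 8 other carbonic anhydrase genes tested, 4 were higher in luminal SOX10 high than in luminal SOX10 low cells, none was lower and 4 were not called, with a median of 1.06, beside 12.6% of all genes higher. Car9, a hypoxia-induced membrane enzyme, averaged 63.0 against 8.05 RPKM (2.83, limma, adjusted p = 0.00228) and Car12, another membrane enzyme, 68.1 against 4.08 RPKM (3.68, adjusted p = 0.00273). Both were also higher in basal SOX10 high than in luminal SOX10 low cells, by 3.55 and 3.52. In Kit signalling 3 of 14 genes were higher and 3 lower in luminal SOX10 high than in luminal SOX10 low cells, beside 12.6% and 10.0% of all genes. Fyn averaged 8.51 against 1.15 RPKM (2.12).

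Among 16 other ETS genes tested in luminal SOX10 high against SOX10 low cells, 3 were higher and 3 lower, beside 12.6% and 10.0% of all genes. Etv1 averaged 6.15 against 0.313 RPKM (2.42), Etv5 12.3 against 3.03 (1.70), and Spdef, an ETS gene of secretory and luminal epithelium, 12.6 against 24.2 (-0.89). Etv5 and Spdef thus differed in direction, and 10 of the 16 genes were not called. Of 9 other C/EBP and STAT genes, 1 was higher and 1 lower, beside the same shares of all genes. Id2, an inhibitor of basic helix-loop-helix factors, averaged 113 against 33.8 RPKM (1.69, limma, adjusted p = 0.0057).

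In C3-1-TAg tumours no member passed the adjusted test between SOX10 high and SOX10 low cells, where 5 of 11948 genes (0.0418%) did. An unadjusted p under 0.05 by limma was reached by 365 genes (3.05%). The fit took all C3 libraries as independent. Deviations from the group mean correlated at 0.824 between SOX10 high 1 and SOX10 low 2. They correlated at 0.697 between SOX10 high 2 and SOX10 low 3, and no block followed these pairs. Elf5 stood at 66.1, 11.9, 13.9, 16.9 and 36.5 RPKM in SOX10 high libraries 1 to 5, against 2.82, 11.7, 4.15 and 1.13 in SOX10 low libraries 1 to 4. Every SOX10 high value was above every SOX10 low value, the closest being 11.9 and 11.7. The difference was 2.35 ± 0.59 on the log2 scale (limma, unadjusted p = 0.00231, adjusted p = 0.813), and the means were 29.1 ± 22.9 and 4.94 ± 4.64 RPKM (SD, n = 5 and 4).

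Kit stood at 76.5, 49.1, 38.8, 58.9 and 55.0 RPKM in SOX10 high libraries, against 13.2, 27.5, 33.6 and 15.2 in SOX10 low libraries. Again every SOX10 high value was above every SOX10 low value, a separation in this direction seen for 0.586% of the genes tested. The difference was 1.34 ± 0.30 (limma, unadjusted p = 0.00104, adjusted p = 0.647), or 2.49-fold by the means. Mast cell markers summed to 17.9 RPKM in SOX10 low 1, where Kit stood at 13.2 RPKM, and to at most 1.96 in every other C3 library. The part of mast cells in the Kit values was not tested.

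Car2 split the C3 libraries in a way that crossed the SOX10 labels. It stood at 4.92, 1.18, 155, 77.3 and 108 RPKM in SOX10 high libraries 1 to 5, against 10.5, 0.405, 0.862 and 8.72 in SOX10 low libraries. SOX10 high 3, 4 and 5 were far above the rest, and SOX10 high 1 and 2 lay within the SOX10 low range. Fibroblast markers summed to 97.5, 229 and 283 RPKM in SOX10 high 3, 4 and 5 and to 4.01 and 25.8 in SOX10 high 1 and 2, against 304, 6.87, 93.6 and 26.6 in SOX10 low 1 to 4. Myeloid markers summed to 178, 129 and 137 RPKM in SOX10 high 3, 4 and 5 and to 16.1 and 53.9 in SOX10 high 1 and 2. In SOX10 low 1 to 4 the myeloid sums were 2372, 39.4, 112 and 122 RPKM. The part of these cells in the Car2 values was not tested. The difference of 2.76 ± 1.29 had an unadjusted p of 0.0575 by limma.

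Ehf stood at 98.9, 55.2, 65.7, 55.5 and 59.7 RPKM in SOX10 high libraries, against 24.4, 78.6, 37.2 and 35.7 in SOX10 low libraries (0.69, limma, unadjusted p = 0.0526). SOX10 low 2 was the one SOX10 low library within the SOX10 high range. Elf3 stood at 329, 34.1, 61.1, 119 and 111 RPKM, against 57.1, 367, 44.6 and 65.0 RPKM (0.15, unadjusted p = 0.839). The highest value of each group came from SOX10 high 1 and SOX10 low 2, the pair most alike over all genes.

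Cebpd stood at 116, 57.1, 317, 178 and 130 RPKM in SOX10 high libraries, against 52.1, 96.3, 50.8 and 76.0 in SOX10 low libraries (1.04 ± 0.43, limma, unadjusted p = 0.0351). Only SOX10 high 2 lay within the SOX10 low range. Cebpb stood at 140, 82.7, 220, 311 and 387 RPKM, against 169, 146, 73.1 and 180 RPKM (0.56, unadjusted p = 0.246), with overlapping groups. Elf5, Kit and Cebpd were the 3 of 9 with an unadjusted p under 0.05, all higher, as were 1.65% of the genes tested.

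Stat5a ran from 5.26 to 21.6 RPKM in SOX10 high and from 12.3 to 17.4 in SOX10 low libraries (-0.24, limma, unadjusted p = 0.473), and Stat5b from 5.52 to 20.8 and from 8.43 to 17.5 (-0.02, unadjusted p = 0.948). Both overlapped between the groups, and the 95% interval of the Stat5a difference ran from -0.96 to 0.48. The members' median difference was 0.69, against -0.04 for all genes. Without SOX10 high 1 and SOX10 low 2, a setting chosen after seeing the data, the differences were 2.45 for Elf5 (adjusted p = 0.296), 1.35 for Kit (adjusted p = 0.635) and 2.80 for Car2, and no member was called.

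**Figure D5:**
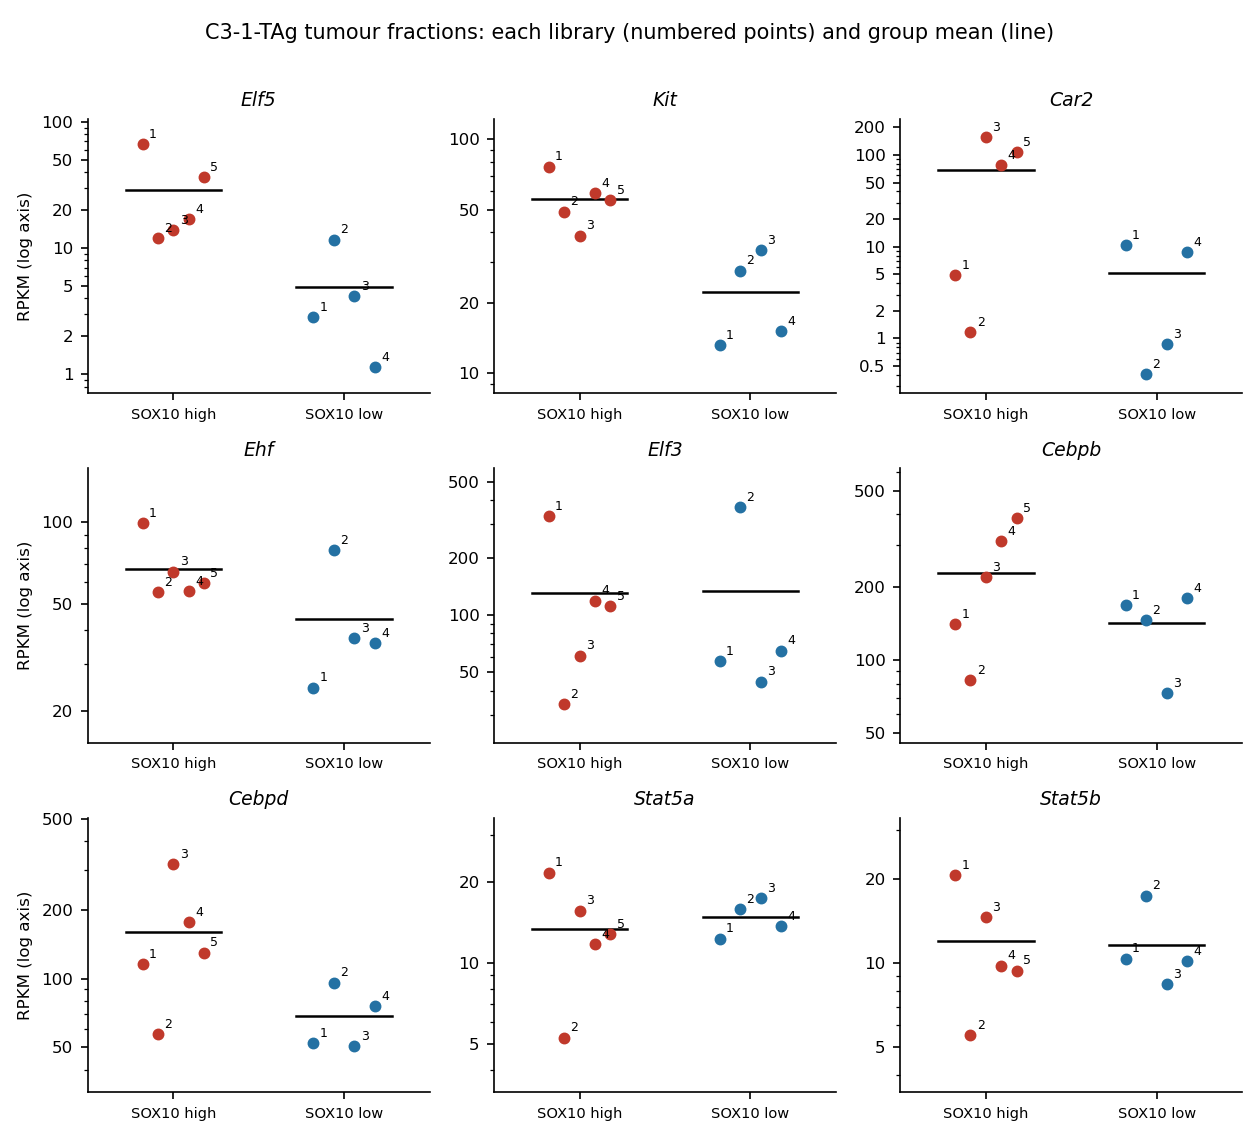
RPKM on a log axis of the 9 genes in C3-1-TAg tumour libraries, SOX10 high (n = 5) and SOX10 low (n = 4), after 2 was taken off each value above 0; points carry library numbers and lines are group means. Elf5 and Kit are higher in every SOX10 high library, Car2 is above 77 RPKM in SOX10 high libraries 3, 4 and 5, and Elf3 is highest in SOX10 high 1 and SOX10 low 2.

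No gene of the 5 pathway lists passed the adjusted test in the C3 table, where 0.0418% of all genes did. Csn2 stood at 36.4, 0.887, 20.5, 1.53 and 0.814 RPKM in SOX10 high libraries, against 0.086, 0.031, 0 and 0.078 in SOX10 low libraries. Its SOX10 high values were all above its SOX10 low values and covered a wide range, and it did not pass the filter on low values for the test. Prlr averaged 5.89 against 11.5 RPKM, Jak2 12.7 against 16.0 and Kitl 13.3 against 13.9, with overlapping groups. Luminal progenitor markers summed to 349 to 1867 RPKM in SOX10 high and 243 to 858 in SOX10 low libraries, and basal markers to 145 to 831 and 619 to 1132; their part in the members' values was not tested.

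The genes whose profile lay closest to Elf5 and Kit were found by Pearson's r of log2(RPKM + 1) over the libraries of a table, among genes that reach 10 RPKM in at least 1 library. Over the 8 normal libraries, from 8060 genes, Elf5 was closest to Csn3 and Lyn (0.977 each) and Txndc16 (0.976), and Kit to Csn3 (0.993), Aldh1a3 (0.991) and Efna1 (0.989). Over the 9 C3 libraries, from 8030 genes, Elf5 was closest to Ai846148 (0.972) and 1700025g04rik (0.944), and the genes close to Kit included Fgfrl1 (0.947) and Ai846148 (0.924), with Elf5 itself at 0.894. Csn3 and Aldh1a3 are also in the list of luminal progenitor markers above. The points share libraries and fall into groups, so these values describe likeness only.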

How the data were processed

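RNA was measured in 23 sorted-cell libraries made with SmartSeq2, a full-length cDNA method that does not mark strand, with 18 and then 10 PCR cycles and single-end reads of 50 or 75 bp, per the labels' protocols. The authors deposited one table of RPKM per gene for each of the normal, PY230 and C3 sets; the submitters' processing notes name mm9, FastQC, HISAT2 2.0.5 and StringTie 1.3.1c. RPKM carry no read counts, so depth is unknown, and only that the number of genes at 1 RPKM or more was 10056 to 12504 per library can be said. Values of the C3 table above 0 start just above 2, so 2 was taken off each of them.

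From there, log2(RPKM + 1) was fitted with limma 3.58.1 (R 4.3.3; intensity trend, all groups of a table together, two-sided), with Benjamini-Hochberg adjustment over all genes tested in the table and a threshold of 0.05. Genes were tested if 2 libraries (4 for C3) reached 1 RPKM. No test crosses tables. The fit was tested on simulated data first. Alternatives were a pseudocount of 0.1, no filter, quantile and median-of-ratios scaling, a replicate block, C3 values as deposited and each library left out. Outside the 9 members, genes were named as those with the largest change among called genes of a list, plus genes that define a pathway; single values picked out beyond that were chosen after they were seen. The members and lists were chosen with earlier results of these data known, so no list was tested. Promoters are from RefSeq, GRCm38.p6; no coordinates of the mm9 files were used. One gene close to Kit in the C3 libraries is not reported here.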

Additional observations from a re-analysis of the deposited data

Results flagged for a closer look

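In the C3 groups of 5 and 4 libraries, 18 sets of member values were checked by Dixon's criterion for a single outlying library. The criterion was met by 3 sets. It was applied to RPKM and not on the log2 scale of the tests. Its rate of about 1 in 20 holds for normally distributed values, which RPKM need not be, so the 3 cannot be set against chance. Whether they hold on the log2 scale was not tested. Ehf was far above the other SOX10 high libraries in SOX10 high 1, at 98.9 RPKM against 55.2 to 65.7. Elf3 was far above its group in the same library, at 329 RPKM against 34.1 to 119. That set met the criterion narrowly, as the gap to the next value was 0.713 of its range against a critical value of 0.71. Elf3 was also far above the other SOX10 low libraries in SOX10 low 2, at 367 RPKM against 44.6 to 65.0. These are the 2 libraries of different label that were most alike over all genes, with correlations of 0.979 in level and 0.824 in deviation from the group mean; the labels do not tie them, and whether they share a tumour was not tested. Groups of 2 libraries were not checked.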

How the results depend on the processing

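Of 900 values for single members under other settings, 817 kept their direction and side of the threshold, 41 lost the call, 23 gained it and 19 changed sign. The number of members called moved by up to 1.5 times. Some comparisons reached that limit with 1 library left out, among them PY230 luminal SOX10 high minus low. Genes called in all numbered 2974 between PY230 luminal SOX10 high and low cells, against 1826 with no filter. In C3 the 5 became 2 with a pseudocount of 0.1, 0 with no filter, 0 with the replicate block, 11 with values as deposited and 0 without SOX10 high 1 and SOX10 low 2. Leaving out 1 library gave 2486 to 5994 for LP minus basal (4455 with all), 932 to 1430 for LP minus ML (2770), 3462 to 4810 for LP minus fMaSC (6349), 3618 to 7186 for ML minus basal (6099), 4801 to 8199 for basal minus fMaSC (7569), 4404 to 5587 for ML minus fMaSC (7080), 470 to 3785 for PY230 luminal SOX10 high minus low (2974), 2996 to 5509 for PY230 basal minus luminal SOX10 high (5513) and 0 to 11 for C3. A lone library was taken to vary like the other groups. Only uncalled differences changed sign: Elf3 in ML minus fMaSC (0.49 under quantile normalization, 0.38 under median-of-ratios scaling) and Stat5b in C3 (0.021 and, with the block, 0.029), and, over libraries left out, Car2 in ML minus basal (-0.039 to 0.73), Cebpb and Cebpd in basal minus fMaSC (-0.013 to 0.43 and -0.27 to 1.03), Elf3 in ML minus fMaSC (-0.16 to 0.055), Elf5 in PY230 basal SOX10 high minus luminal SOX10 low (-0.023 to 0.58), and Elf3, Stat5a and Stat5b in C3 (-0.28 to 0.83, -0.43 to 0.029 and -0.24 to 0.20). The cause was not tested.

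The labels do not say that replicate numbers mark a shared animal or day. Same-numbered C3 libraries deviated with correlations of -0.34 to 0.20. With only 2 numbers, the correlation was 0.22 for ML and basal, 0.11 for LP and basal, 0.074 for LP and ML and under 0.01 with fMaSC, and 0.30 for PY230 basal and luminal SOX10 high libraries and -0.20 for basal SOX10 high and luminal SOX10 low. The replicate block changed 2 member calls, both given above, and no other. Same-numbered PY230 luminal libraries deviated with a correlation of -0.26; a block with the SOX10 low numbers crossed, added after seeing the data, called 2055 genes higher and 1751 lower, against 1497 and 1081 with the numbers as given.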
